A study of Caenorhabditis elegans with 2 samples.

Results

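The deep-intronic candidate regions of an NHR-12 chromatin immunoprecipitation were those whose summit lay inside an intron, away from the starts of protein-coding genes. They were taken from the list of 28574 candidate regions that the authors called on both replicates together, on the ce11 build. A summit had to lie inside the body of a protein-coding gene but in no annotated exon of any gene, over 1000 bp from every protein-coding gene start and over 250 bp from any tRNA, snoRNA or snRNA gene. Of the 28574 candidates, 8428 had an intronic summit, 2595 of these were removed for a nearby gene start and 93 more for a small RNA gene alone. The remaining 5740 regions, 20.1% of all candidates, are called members here, and the rule used annotation only, not the strength of the signal.

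The assay was chromatin immunoprecipitation with sequencing (ChIP-seq), which maps where a protein sits on the genome, of NHR-12 joined to an enhanced green fluorescent protein (eGFP). It was run on whole Caenorhabditis elegans of strain OP318, whose genotype is unc-119(ed3) III; wgIs318, as embryos of mixed stages and of both sexes pooled. There were 2 biological replicates of 1 group, with fragments of 150 to 350 bp, and the tagged protein came from the integrated transgene wgIs318, so these embryos carry a mutation in unc-119 besides the tag. The control that the authors' caller used is not analysed here, and the lists give no read counts, so the depth is unknown and no interval below covers it. What separated the replicates, such as culture or collection, is not stated, and whole embryos mix all cell types.

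NHR-12 belongs to the nuclear hormone receptors, zinc-finger transcription factors that bind DNA at short half-site sequences and form an unusually large family in nematodes. Most nematode introns are very short, and regulatory elements usually lie upstream of a gene, but long introns, the first one above all, often hold enhancers, start sites of shorter transcripts and genes of small RNAs. In ChIP-seq of whole animals, weak candidates far from promoters include both real binding and background, which is why a thresholded list is read beside the full one.

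The authors kept a short thresholded list of peaks by comparing candidate lists through the irreproducible discovery rate, and every one of its peaks had the same coordinates as a pooled candidate. Its peaks were the candidates of largest pooled signal. Of the members, 24 were in that thresholded list, beside 225 other peaks. The windows of 100 bp to each side of the summits of 6 of them are shown first because these have the largest signals, and the pbrm-1 region, which ranks with them, is named only. They were read from the RefSeq copy of the assembly, on the plus strand. Capitals mark matches to GAGAGA, CTGCGTCT and GGGCGG on either strand, so TCTCTC, AGACGCAG and CCGCCC are capitals too, and overlapping matches run together.
Y43F8B.2, chrV:19522822-19523022, plus strand: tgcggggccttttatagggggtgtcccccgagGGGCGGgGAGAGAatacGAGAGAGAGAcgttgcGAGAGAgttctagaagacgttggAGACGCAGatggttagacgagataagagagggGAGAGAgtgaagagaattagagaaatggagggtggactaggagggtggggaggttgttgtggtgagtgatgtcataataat
scc-2, chrII:255255-255455, plus strand: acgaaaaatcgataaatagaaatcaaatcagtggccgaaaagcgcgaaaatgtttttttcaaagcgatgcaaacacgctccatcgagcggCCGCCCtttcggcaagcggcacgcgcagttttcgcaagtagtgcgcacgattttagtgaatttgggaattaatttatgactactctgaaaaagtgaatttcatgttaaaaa
pqn-41, chrIII:1926573-1926773, plus strand: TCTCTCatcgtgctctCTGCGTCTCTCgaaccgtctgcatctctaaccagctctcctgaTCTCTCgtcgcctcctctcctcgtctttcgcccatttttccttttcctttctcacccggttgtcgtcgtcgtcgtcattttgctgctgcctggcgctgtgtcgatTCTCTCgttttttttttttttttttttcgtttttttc
K01F9.2, chrIII:8874273-8874473, plus strand: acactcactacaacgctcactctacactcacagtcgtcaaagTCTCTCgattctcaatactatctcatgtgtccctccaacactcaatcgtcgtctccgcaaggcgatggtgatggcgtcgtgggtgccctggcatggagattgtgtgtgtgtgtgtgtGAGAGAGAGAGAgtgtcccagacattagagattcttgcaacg
mom-1, chrX:6296437-6296637, plus strand: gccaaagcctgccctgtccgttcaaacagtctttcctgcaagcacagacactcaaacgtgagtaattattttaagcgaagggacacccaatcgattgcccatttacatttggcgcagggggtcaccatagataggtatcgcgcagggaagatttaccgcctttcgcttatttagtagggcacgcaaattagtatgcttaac
nova-1, chrV:18079282-18079482, plus strand: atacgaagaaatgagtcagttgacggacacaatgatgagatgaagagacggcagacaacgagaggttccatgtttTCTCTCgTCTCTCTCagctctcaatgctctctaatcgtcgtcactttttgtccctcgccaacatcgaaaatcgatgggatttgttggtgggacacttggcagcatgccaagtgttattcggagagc

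The windows differ widely in kind. The Y43F8B.2 and nova-1 windows are rich in GA or TC runs, the K01F9.2 window has a run of GA repeats after a run of GT repeats, and the pqn-41 window is pyrimidine-rich with a T run at its end. The scc-2 window has 1 GC-box match close to its summit, and the mom-1 window has no capital letter at all. Their GC content ran from 41.3% in scc-2 to 52.2% in Y43F8B.2.

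Signal is the value per region that the authors deposited, on a scale that is not stated, and it was not compared in size between lists. The members' pooled signals ran from 7.77 to 54.9 with a median of 10.2, beside a median of 10.4 over all candidates. Of the 5740 members, 0.418% were in the thresholded list (exact Clopper-Pearson 95% interval 0.268% to 0.621%), and among all pooled candidates the share was 0.871%. The members' interval lies below that share. Intronic candidates within 1000 bp of a coding start had 14 of 2563 in the list (0.546%, interval 0.299% to 0.915%), and distal intergenic candidates, outside every gene and away from starts and small RNA genes, had 32 of 4993 (0.641%, interval 0.439% to 0.904%). These intervals overlap that of the members. Coding-exon candidates away from starts had only 2 of 4776 (0.0419%, interval 0.00507% to 0.151%), which lies below it. All these intervals treat regions as independent and cover counting error only.

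The share of candidates that were members depended on rank. It was 9.64% among the thresholded peaks (interval 6.27% to 14%), 9.56% at pooled ranks 250 to 500, 14.2% from there to rank 1000 and 21.8% below rank 20000 (interval 20.9% to 22.7%). Thus members made up a larger part of the weak candidates than of the strong ones, and the step at the threshold itself was not where the share changed. Distal intergenic candidates moved less along the same ranks, from 12.9% to 18.3%, and coding-exon candidates went from 0.803% to 16.4%.

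**Figure D1:**
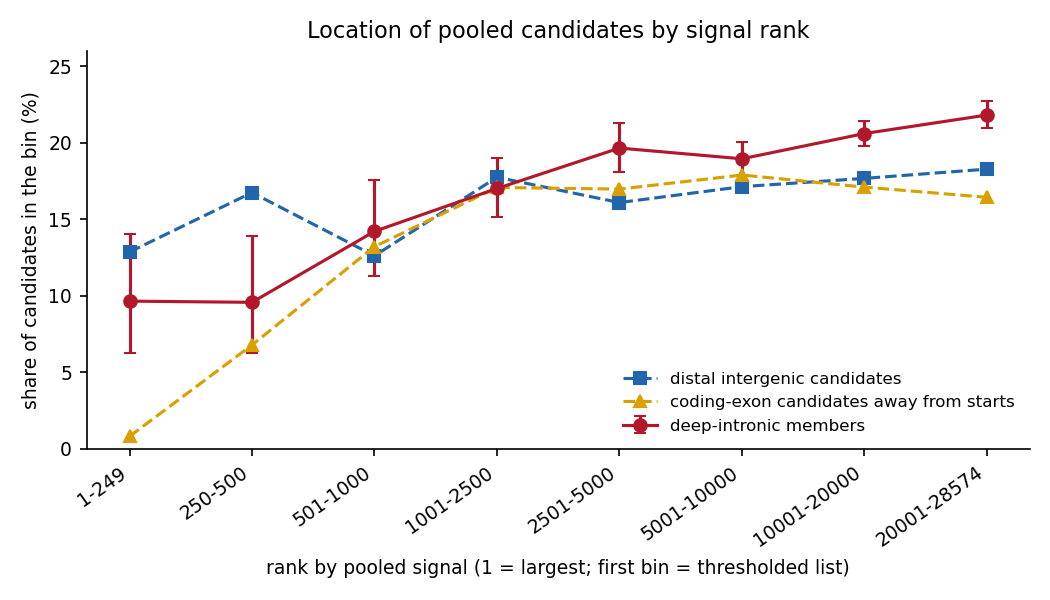
Share of pooled candidates (vertical axis, %) by rank of pooled signal (horizontal axis, strongest bin at the left) for deep-intronic members, distal intergenic and coding-exon candidates; bars are exact 95% intervals for the members. The members rise from 9.64% in the strongest bin to 21.8% in the weakest.

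Both replicates had a candidate overlapping the region, by at least 1 bp, at 1836 of the 5740 members, or 32.0% (interval 30.8% to 33.2%), beside 32.9% of all pooled candidates, so this share was near the background. Candidates of replicate 1 overlapped 3691 members and those of replicate 2 overlapped 3363, and 522 members overlapped a candidate of neither. Agreement followed pooled signal, which itself comes from both libraries: 23 of the 24 members at ranks 250 to 500 were found in both, 90.1% from there to rank 1000 and 14.1% below rank 20000. Other candidates gave 96.5%, 87.6% and 13.9% in the same bins. A member therefore recurred about as often as another candidate of its rank. To set the replicates on a like footing, as many of the strongest regions of each were taken as there are thresholded peaks, called the best regions of that replicate. Overlap with a best region of both replicates was held by 11 members (0.192%), against 0.434% of all pooled candidates.

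All 24 members in the thresholded list overlapped a candidate in both replicates, as did 224 of the 225 other thresholded peaks. The list was itself made by comparing candidate lists, so this is no separate support. The ranks of the 24 in the replicates differed. Among the best regions of replicate 1 there were 13 of them, of replicate 2 there were 12, of both 5 and of neither 4. The median rank was 198 in replicate 1 and 239 in replicate 2, and the worst were 1729 and 6380. For the 225 other thresholded peaks the median ranks were 137 and 152, and 95 of them were among the best of both. Their −log10 q values from the authors add no order, because 18 of the 24 held the highest value of the list, 2.61.

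**Figure D2:**
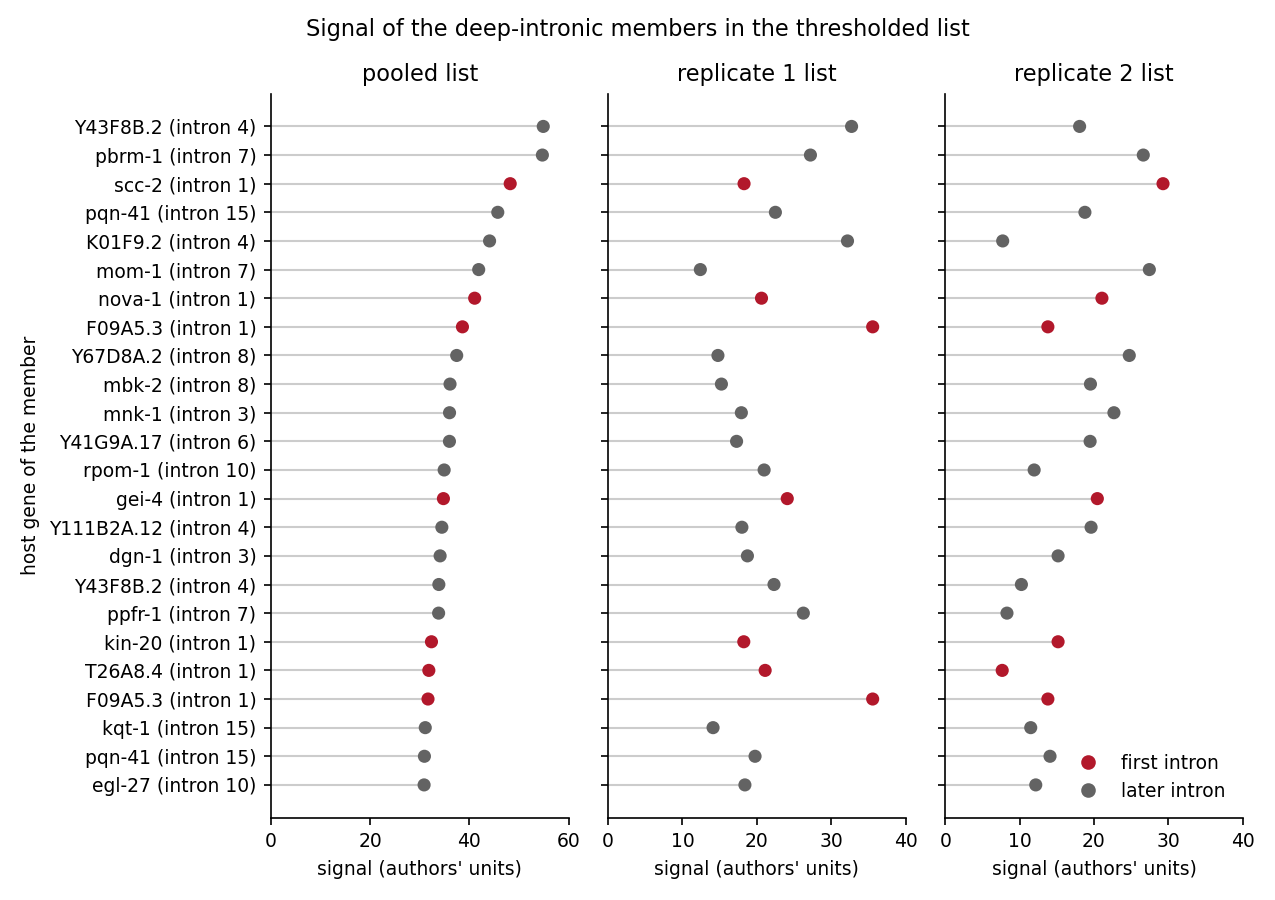
Signal in the authors' units (horizontal axes) of the 24 deep-intronic members of the thresholded list, 1 row each labelled by host gene and intron, in the pooled, replicate 1 and replicate 2 lists, whose scales were not compared; red marks first introns. K01F9.2 had 32.2 in replicate 1 (rank 48) and 7.73 in replicate 2 (rank 6191), and mom-1 had 12.4 (rank 1729) and 27.4 (rank 37). Their ranks differed in opposite directions, and T26A8.4 (ranks 177 and 6380) and ppfr-1 (ranks 89 and 4790) leaned as K01F9.2 did.

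The strongest member lay in intron 4 of Y43F8B.2, at chrV:19522744-19523099. Its signal was 54.9 in the pooled list (rank 39), 32.7 in replicate 1 (rank 45) and 18.1 in replicate 2 (rank 162), so it was among the best regions of each. Its summit was 61 bp upstream of the start of a shorter annotated transcript of the same gene. A further thresholded member in the same intron of 8604 bp, 6456 bp away, had 33.8 in the pooled list, 22.3 in replicate 1 and 10.2 in replicate 2 (rank 1923).

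The next lay in intron 7 of pbrm-1, which encodes a polybromo subunit of a SWI/SNF chromatin remodelling complex. It had 54.7 in the pooled list, 27.2 in replicate 1 (rank 77) and 26.6 in replicate 2 (rank 40), high in both, in an intron of 1260 bp and 174 bp from the non-coding RNA gene C26C6.12. In scc-2, which encodes the loader of cohesin onto chromosomes, the member lay in the first intron, of 8367 bp, with 48.2 in the pooled list, 18.3 in replicate 1 (rank 295) and 29.3 in replicate 2 (rank 28). The scc-2 summit was 159 bp upstream of an internal transcript start.

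Intron 15 of pqn-41, whose product is rich in glutamine, held 2 thresholded members among 8 in its 7770 bp. The stronger had 45.7 in the pooled list, 22.5 in replicate 1 (rank 140) and 18.8 in replicate 2 (rank 142), and the weaker 30.9, 19.8 (rank 209) and 14.1 (rank 423). Between and beside them lay members of pooled signal 27.05 and 24.1, the second of which had 27.8 in replicate 1 (rank 69) and no candidate in replicate 2. The first of these had 20.1 in replicate 1 (rank 202) but 5.84 in replicate 2 (rank 14250). This intron thus held 4 of the 1000 strongest pooled candidates within a few kilobases, more than any other intron with members. The last 2 described ranked high in replicate 1 only.

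Further thresholded members differed between replicates. In intron 7 of mom-1, which encodes the Porcupine homolog needed for Wnt secretion, the region had 41.9 in the pooled list, 12.4 in replicate 1 (rank 1729) and 27.4 in replicate 2 (rank 37). In the first intron of nova-1, a gene for a Nova-related RNA-binding protein, it had 41.1, 20.6 (rank 187) and 21.1 (rank 81), among the best regions of each. In mbk-2, a DYRK kinase gene of the oocyte-to-embryo transition, intron 8 had 36.1, 15.2 (rank 631) and 19.5 (rank 126). Intron 3 of mnk-1, which encodes a kinase that acts downstream of MAP kinases, had 36, 17.9 (rank 319) and 22.7 (rank 66). These 4 regions ranked better in replicate 2 than in replicate 1, nova-1 by the smallest step in rank, while gei-4, in its first intron, ranked well in both, with 34.8, 24.1 (rank 118) and 20.5 (rank 93).

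In the lower part of the 24 the replicate ranks were mixed, and the ppfr-1 and F09A5.3 regions described below ranked high in replicate 1. Intron 10 of rpom-1, the gene for the mitochondrial RNA polymerase, had 34.9 in the pooled list, 20.98 in replicate 1 and 11.96 in replicate 2. The dystroglycan gene dgn-1 had 34.1, 18.7 and 15.2, in an intron of only 47 bp, and 82.6% of that region was exon sequence, so its summit alone made it a member. The first intron of kin-20, a casein kinase 1 gene, had 32.4, 18.2 and 15.2, with the summit 49 bp from the non-coding RNA gene F46F2.12. Intron 15 of the potassium channel gene kqt-1 had 31.1, 14.1 (rank 931) and 11.5 (rank 1138), and intron 10 of egl-27, which encodes a homolog of the chromatin protein MTA, had 30.9, 18.4 (rank 281) and 12.2 (rank 839). Neither of the last 2 was among the best regions of a single replicate. Y41G9A.17 with 35.98, Y111B2A.12 with 34.5 and T26A8.4 with 31.8 in the pooled list complete the set with those described below. T26A8.4 had 21.1 in replicate 1 (rank 177) and 7.67 in replicate 2 (rank 6380). Y41G9A.17 and Y111B2A.12 ranked 360 and 314 in replicate 1, and 127 and 122 in replicate 2.

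The values just outside the list were close to those inside it. The weakest thresholded member had a pooled signal of 30.9, and the 5 next members were in miz-1 (29.98), in ceh-18 (29.6), a POU homeobox gene, in pqn-65 (29.2), in lsy-22 (29.1) and in unc-108 (28.3), the Rab2 GTPase gene. The lsy-22 region had 20.2 in replicate 1 (rank 199) and 17.1 in replicate 2 (rank 190), better in each than 12 of the 24 thresholded members. In pks-1, a polyketide synthase gene, a member of pooled signal 21.3 (rank 840) overlapped a candidate of 31.8 (rank 51) in replicate 1 and of 38.2 (rank 8) in replicate 2, but 86.8% of that region was exon and it overlapped a thresholded peak that is no member. The other 4 members among the best of both replicates without being in the list lay beside stronger members of lsy-22, pbrm-1, gei-4 and pqn-41 and overlapped the same replicate candidates. In all, 474 members overlapped another member, 9 of the 24 thresholded ones among them, and 15 of the 5266 members overlapping no other were in the list (0.285%).

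Introns with microRNA genes stood out by eye among the 24, and were counted after those values were seen. MicroRNAs are short RNAs that repress messenger RNAs, and many nematode ones lie in introns of protein-coding genes. Within 500 bp of a microRNA gene lay 18 members, of which 5 were thresholded (27.8%, interval 9.69% to 53.5%), beside the 0.871% of all pooled candidates. Their median pooled signal was 16.1, and eligible sequence within that distance amounted to 40.3 kb. Within 250 bp the count was 2 of 10 members (20%, interval 2.52% to 55.6%). Both intervals treat regions as independent. In the wider count 2 regions in F09A5.3 overlapped the same replicate candidates, and in both counts 2 regions in Y67D8A.2 did so. As the counts were prompted by the values, they are a description of these 5 regions. Members within 250 bp of any other non-coding gene, microRNAs, piRNAs and pseudogenes included, numbered 453, and 5 were thresholded (1.10%, interval 0.359% to 2.56%). Of the 5287 members further away, 19 were thresholded (0.359%, interval 0.217% to 0.561%), and these intervals overlap.

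In intron 4 of K01F9.2 the summit was 289 bp upstream of mir-90, on the same strand as the host. It had 44.1 in the pooled list, 32.2 in replicate 1 (rank 48) and 7.73 in replicate 2 (rank 6191), so replicate 1 carried it. In intron 8 of Y67D8A.2 the summit was 177 bp upstream of mir-58a, one of the most abundant microRNAs of the worm, with 37.4, 14.8 (rank 725) and 24.7 (rank 53), so here replicate 2 was the stronger. In intron 7 of ppfr-1, a protein phosphatase 4 regulatory subunit gene, the summit was 421 bp upstream of mir-2, with 33.8, 26.2 (rank 89) and 8.30 (rank 4790). The Y67D8A.2 and ppfr-1 summits were nearer to other non-coding RNA genes, each 85 bp away, Y67D8A.6 and F16A11.5. These 3 lie upstream of a microRNA on the strand of the host gene, and none was among the best of both replicates. A further member in intron 8 of Y67D8A.2, 6 bp from mir-58a, overlapped the same replicate candidates. Its pooled signal was only 12.1 (rank 9069).

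The first intron of F09A5.3, 9158 bp long, holds genes of the mir-51 family on the opposite strand, a family whose members jointly support embryonic development. Its 2 thresholded members had 38.6 and 31.7 in the pooled list with summits 213 bp apart, downstream of the 5′ end of mir-56. Both overlapped the same candidates, with 35.6 in replicate 1 (rank 26) and 13.8 in replicate 2 (rank 457), and so count as 1 observation in each replicate. Another candidate in the intron, 934 bp further and 466 bp upstream of mir-54, had 27.6, 16.7 (rank 412) and 10.4 (rank 1747). The member beside mir-82 in gid-2 had a pooled signal of 18.4 (rank 1569), above most members though outside the list, while those beside mir-66 in gcn-1 (7.85) and beside lin-4, the developmental timing microRNA, in F59G1.4 (8.28) were weak.

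Intron length separated the members. C. elegans introns of protein-coding genes, taken here as gaps between the merged exons of a gene, had a median length of 65 bp, and 2488 of 104828 reached 2000 bp, or 2.37%. Those long introns held 2067 members and 18 of the 24 thresholded ones. In introns of 2000 bp and more 0.871% of members were in the thresholded list (interval 0.517% to 1.37%), and in shorter ones 6 of 3673 or 0.163% (interval 0.0600% to 0.355%), so these intervals do not overlap. The share in long introns equals, to 3 digits, that of all pooled candidates. The median intron was 4205 bp long for the thresholded members and 1126 bp for all members.

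By class the thresholded members were 2 of 1582 in introns under 500 bp, 0 of 1068 from 500 to under 1000 bp (which allows a share of up to 0.345% by the same interval), 4 of 1023 from 1000 to under 2000 bp, 8 of 1095 from 2000 to under 5000 bp and 10 of 972 from 5000 bp. Density was taken as members per megabase of intron sequence that meets the rule, 23.3 Mb in all, and was 246.3 on average. It was 284 in introns under 500 bp, 210.3 and 201.04 in the next 2 classes, 247 from 2000 bp and 309 from 5000 bp, so it was lowest at middle lengths. Members in introns under 500 bp often reach into exons, since most regions are wider than such an intron. Over all members, 2918 contained exon bases and 2822 none, with 10 and 14 thresholded.

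Composition of the summit windows differed between these length classes. The mean soft-masked share of summit windows, the lower-case repeats and low-complexity sequence of the assembly, was 29.9% in introns under 500 bp, 43.3% and 44.1% in the next 2 classes, 29.97% from 2000 bp and 28.5% from 5000 bp. In introns under 500 bp such windows can take in exon sequence, and the windows of coding-exon candidates away from starts averaged 13.7% masked. Summit windows in introns of 2000 bp and more had a median GC content of 37.8% and a mean soft-masked share of 29.3%, and in all shorter introns together these were 36.3% and 37.8%. The part of composition in the difference by length was not tested.

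First introns held 868 members and later introns 4872. In first introns 7 members were thresholded (0.806%, interval 0.325% to 1.65%) and in later ones 17 (0.349%, interval 0.203% to 0.558%), and these intervals overlap. First introns made up 12.4% of the eligible sequence and 15.1% of the members, with 300 members per megabase against 239. Among introns of 2000 bp and more, 6 of 714 members in first introns (0.840%) and 12 of 1353 in later ones (0.887%) were thresholded, so there the shares were close. Where an intron counted as first if it was the first of any annotated transcript, 1741 members were in first introns, 30.3% of all. Of these, 12 were thresholded (0.689%, interval 0.357% to 1.20%). Of the 3999 in later introns 12 were too (0.300%, interval 0.155% to 0.524%), and these intervals overlap.

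**Figure D3:**
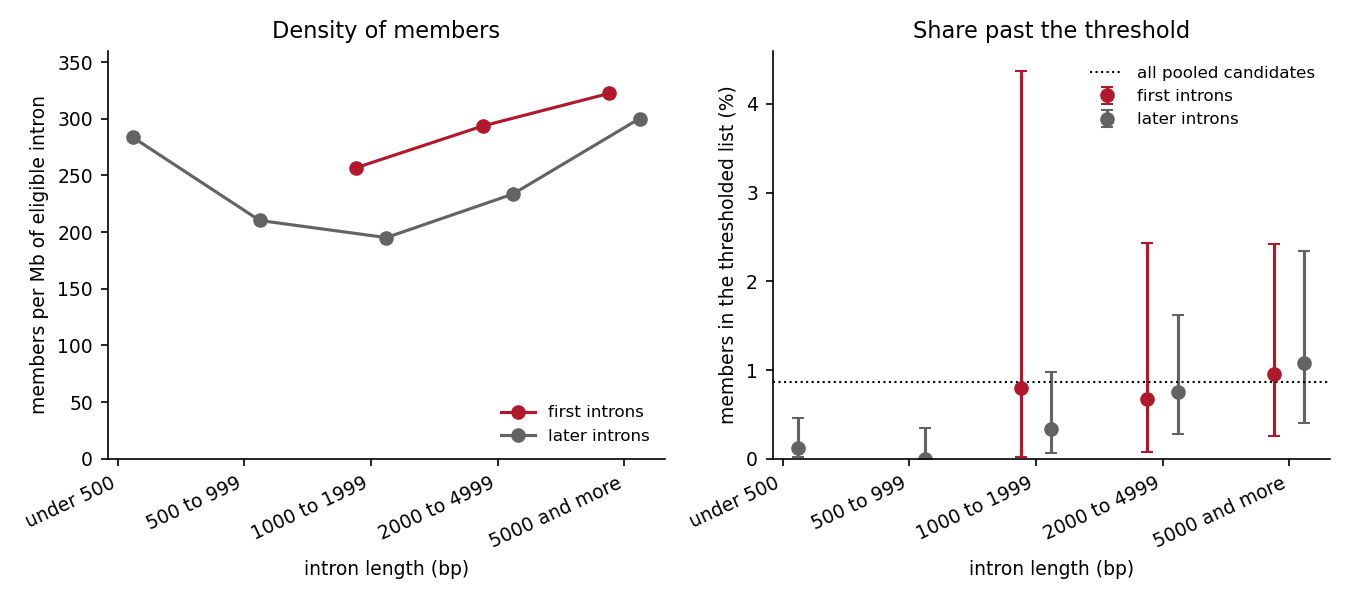
Members per megabase of eligible intron (left) and share of members in the thresholded list with exact 95% intervals (right, %), by intron length in bp and for first and later introns; classes of under 20 members are not drawn and the dotted line is the 0.871% of all candidates. The thresholded share is lowest in later introns under 1000 bp, and the density in later introns is lowest from 1000 to under 2000 bp.

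Along introns of 2000 bp and more, cut into 5 equal parts from the 5′ end, the density was 230, 278, 287, 262 and 294 members per megabase of eligible sequence. Thresholded members numbered 0, 6, 3, 2 and 7 in the same order. Median signal stayed between 10.3 and 10.6 in all parts. The longest intron with members, 100801 bp in the receptor gene nhr-27, held 5, the best with a pooled signal of 13.2. How much of this intron meets the rule was not counted.

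Distance to the nearest coding start set the edge of the rule. Just outside, over 750 and up to 1000 bp, 0 of 645 intronic candidates were thresholded (which allows up to 0.570%) with a median signal of 10.3, and just inside, over 1000 and up to 1250 bp, 1 of 525 with the same median to 3 digits. The 1 was in the first intron of T26A8.4, at 1163 bp. Within 250 bp of a start 9 of 527 were thresholded (1.71%), and beyond 5000 bp 10 of 1572 (0.636%, interval 0.305% to 1.17%). At the other edge, 93 candidates within 250 bp of a small RNA gene had a median signal of 11.9 with 4 thresholded, and the 25 from there to 500 bp had 10.4 with 0.

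Internal transcript starts, those of shorter transcripts over 1000 bp from the gene start, lay close to some members. From 500 bp upstream to 200 bp downstream of one were 476 members (8.29%) and 4 of the 24 thresholded members (16.7%, interval 4.74% to 37.4%), in Y43F8B.2, scc-2, T26A8.4 and egl-27. Sequence in these windows made up 6.25% of the eligible total, with 327 members per megabase. Members near an internal start had 0.840% in the thresholded list (interval 0.229% to 2.14%) and the others 0.380% (interval 0.232% to 0.586%), and the intervals overlap. With the rule applied to the starts of all protein-coding transcripts, 4577 members were left, 16 of them thresholded (0.350%).

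GC content rose with signal. The median at the summit was 36.8% over all members, 35.8% below rank 20000, 40.3% over ranks 1000 to 2500, 45.5% at 250 to 500 and 49.8% for the 24 thresholded members, while their flanks 400 bp away stayed at 39.7% or less. The 24 ran from 29.4% in rpom-1 to 58.7% in F09A5.3, and 20 of them had more GC than their own flanks. Other thresholded peaks had a median of 46.3%. Among members of at least 50% GC, 12 of 219 were thresholded (5.48%, interval 2.86% to 9.38%), close to the 5.12% of other candidates of that GC content. From 45% to under 50% GC the share was 1.02% of members against 2.55% of other candidates (intervals 0.333% to 2.37% and 1.98% to 3.24%, which overlap). From 40% to under 45% it was 0.362% against 1.22% (intervals 0.0986% to 0.923% and 0.938% to 1.56%, which do not overlap), and from 35% to under 40% it was 0.0589% against 0.422% (intervals 0.00149% to 0.328% and 0.279% to 0.614%, which overlap). Below 35% the shares were 0.0897% and 0.0538%. Members thus matched other candidates in the bin of most GC and were less often thresholded at 40% to under 45%. Eligible intron sequence as a whole, which leaves out all exons, was 32.1% GC, and members with no exon base in the region had a median of 37.3% at the summit.

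Soft-masked sequence took the opposite course. It averaged 34.7% of the window over all members and 24.5% over the other candidates, 38.7% below rank 20000 and 15.8% in the thresholded members. Eligible intron sequence, which leaves out all exons, was 52.6% soft-masked. Some summit windows take in exon bases, but those of members with no exon base in the region averaged 35.6%. These windows were thus also less masked than eligible introns at large. Of the 24, 6 windows had no masked base, and only 1 was masked over more than 50%, in pqn-41. How far alignment in repeats moves these values was not tested.

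**Figure D4:**
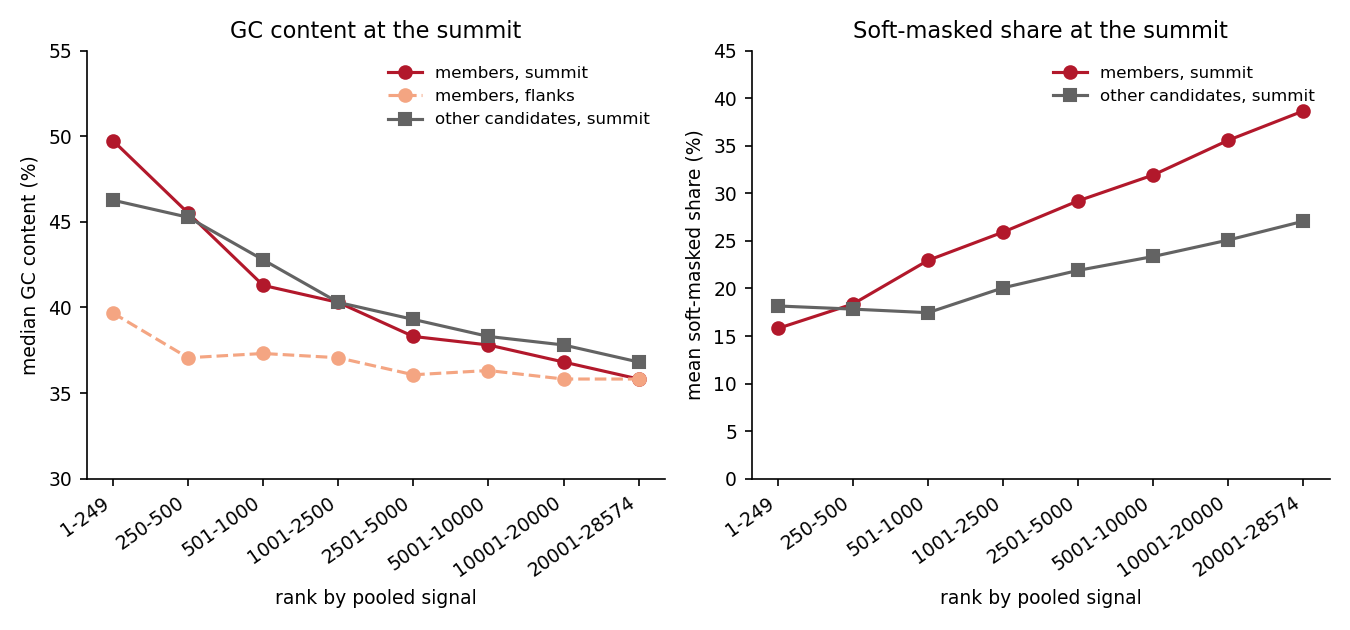
Median GC content (left, %) and mean soft-masked share (right, %) of summit windows by rank of pooled signal for members and other candidates, with the members' flanks in the left panel, whose axis starts at 30%. Members go from 35.8% to 49.8% GC and from 38.7% to 15.8% masked between the weakest and the strongest bin.

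Motifs were searched as exact letters on both strands in the summit windows. GAGAGA, a GA repeat, was present in 9 of the 24 thresholded members (37.5%, interval 18.8% to 59.4%), 13.97% of all members, 11.4% of their flanks and 14.5% of all pooled candidates. CTGCGTCT, known from nematode promoters, was in 5 of 24 (20.8%, interval 7.13% to 42.2%), in 2.61% of members, 1.25% of flanks and 2.39% of all candidates. GGGCGG, the GC box of Sp1-like factors, was in 6 of 24 (25%, interval 9.77% to 46.7%), in 4.76% of members, 3.34% of flanks and 4.42% of all candidates. At least 1 of these 3 was in 13 of 24 windows, 54.2%, and in 56.4% of the 225 other thresholded peaks. Singly, the other thresholded peaks had GAGAGA in 41.3%, CTGCGTCT in 27 of 225 and GGGCGG in 17.8%, each within the interval of the 24. The own flanks of the 24 had GAGAGA in 16.7%, and CTGCGTCT and GGGCGG in 0%. These 3 motifs were picked for display after their counts were seen.

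The nuclear receptor half-site AGGTCA was in none of the 24 windows, which allows a share of up to 14.2%, and in 5.91% of members against 5.56% of flanks and 5.70% of all candidates. Its shorter form GGTCA was in 5 of 24 (20.8%, interval 7.13% to 42.2%), 18.9% of members, 17.9% of flanks and 18.5% of all candidates. The GATA core GATAA was in 4 of 24 (16.7%), 34.2% of members and 36% of the flanks of all members. The own flanks of the 24 had it in 18.8%, close to their summits. A run of 8 T was in 22.4% of members and 23.2% of their flanks, above the 16.5% of all candidates. Among thresholded members it was in 1 of 24 summit windows and in 25% of their own flanks. The telomere repeat unit TTAGGC was in 7.91% of members, 5.53% of flanks and 5.30% of all candidates. CCAAT was in 10 of 24 and 35.5% of members.

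Further searches gave differences in both directions. The cyclic AMP response element TGACGTCA was in 2.09% of members and 1.26% of flanks, but in none of the 24, and the E-box CACGTG was in 4.15% and 3.91%, with 2 of the 24. The forkhead letters TGTTTNC were in 17.5% of members and 17.4% of flanks, and TATAAA in 18.2% and 20.3%. The heat shock letters TTCNNGAA were in 11.3% of members and 13.6% of flanks, with 3 of the 24. GGTTCGA, the core of the B box inside tRNA genes, was in 1 of the 24 and in 9.33% of the other thresholded peaks, which the rule did not clear of tRNA genes. Base composition differs between these sets as given above, and its part was not tested.

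**Figure D5:**
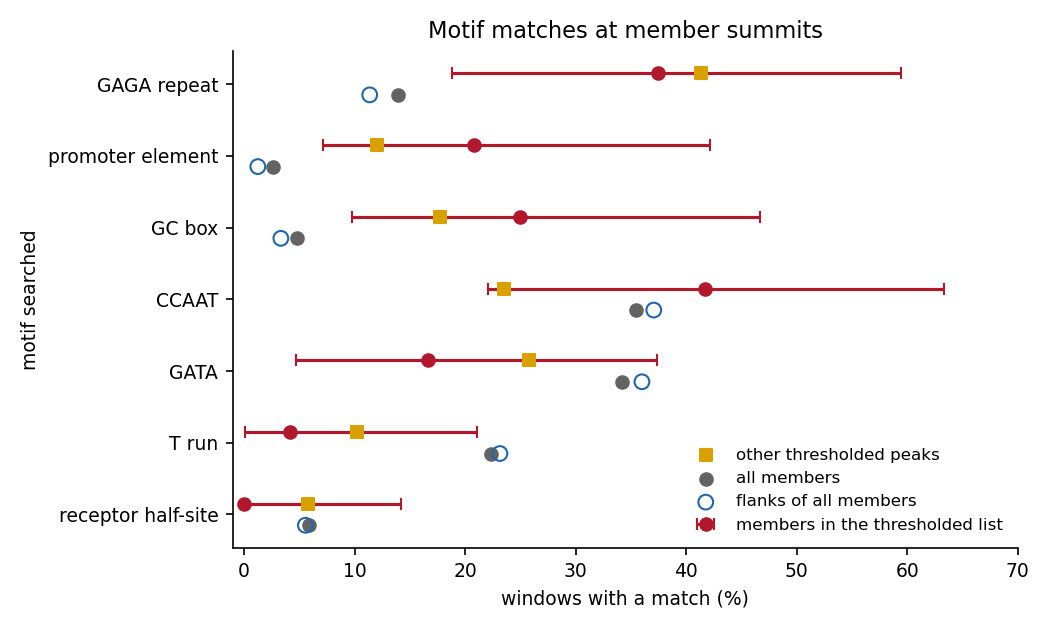
Share of summit windows with a match (horizontal axis, %) for 7 of the 21 motifs searched, in thresholded members (red, exact 95% intervals), other thresholded peaks, all members and the flanks of all members. GAGA repeat, promoter element and GC box are at 37.5%, 20.8% and 25% of thresholded members, and the receptor half-site AGGTCA is at 0. Its shorter form GGTCA is not drawn.

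The CTGCGTCT matches are shown with their surroundings because they were exact over 8 letters in 5 peaks of 4 host genes. Each stretch of 61 bp is given on the strand on which the motif, in capitals, reads forward.
Y43F8B.2, chrV:19522884-19522944, minus strand: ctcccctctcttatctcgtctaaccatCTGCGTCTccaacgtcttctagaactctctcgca
pqn-41, chrIII:1926573-1926633, plus strand: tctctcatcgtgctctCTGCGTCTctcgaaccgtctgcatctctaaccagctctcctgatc
mbk-2, chrIV:13030016-13030076, plus strand: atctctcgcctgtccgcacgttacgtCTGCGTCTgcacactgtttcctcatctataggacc
Y111B2A.12, chrIII:12612639-12612699, plus strand: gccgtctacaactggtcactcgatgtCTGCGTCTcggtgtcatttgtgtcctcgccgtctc
Y43F8B.2, chrV:19529379-19529439, plus strand: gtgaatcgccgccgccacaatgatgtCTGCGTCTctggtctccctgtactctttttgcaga

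Of the 5 stretches, those of pqn-41, Y111B2A.12 and mbk-2 and of the weaker Y43F8B.2 region had the motif on the plus strand of the chromosome, and that of the stronger Y43F8B.2 region on the minus strand. The match centre was 8.5 bp from the summit in the stronger Y43F8B.2 region, 5.5 bp in Y111B2A.12, 30.5 bp in the weaker Y43F8B.2 region, 60.5 bp in mbk-2 and 80.5 bp in pqn-41. All 5 windows also held GAGAGA. The GC-box matches, shown in the same way for 4 host genes, lay in stretches of differing composition.
scc-2, chrII:255318-255378, minus strand: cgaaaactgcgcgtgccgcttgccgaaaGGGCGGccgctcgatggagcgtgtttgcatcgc
Y67D8A.2, chrIV:3233013-3233073, minus strand: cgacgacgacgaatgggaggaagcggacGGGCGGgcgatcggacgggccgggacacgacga
gei-4, chrIII:349511-349571, minus strand: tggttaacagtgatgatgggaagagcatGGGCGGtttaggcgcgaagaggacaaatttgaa
T26A8.4, chrIV:8431749-8431809, minus strand: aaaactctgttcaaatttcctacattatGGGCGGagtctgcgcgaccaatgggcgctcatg

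Members were spread over 3185 host genes, 2077 of them with a single member. The host with most was hmr-1, the classical cadherin gene, with 26 members in 7 introns, the best with 27.7 in the pooled list, 14.6 in replicate 1 (rank 759) and 13.4 in replicate 2 (rank 518). It was followed by mig-10, the lamellipodin homolog of axon guidance, with 19, by kin-1, the protein kinase A catalytic subunit, with 15, and by pqn-41 with 14. The genes ajm-1 of the apical junction, cdc-25.2 of cell cycle control, aakg-1 of the AMP-activated kinase, sos-1 of Ras signalling, rhgf-3, spsb-1 and gcn-1 had 13 each. These hosts have much eligible intron, from 15368 bp in cdc-25.2 to 45619 bp in hmr-1, and per 10 kb they held 3.01 members in rhgf-3 to 8.56 in mig-10. Of these 11 genes, pqn-41 alone had thresholded members, 2 of its 14. At the 0.418% of all members, a count of 0 in a host of at most 26 members is near the background.

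Of the 13215 protein-coding genes that have eligible intron sequence, 3185 held 1 or more members, or 24.1%. Members were also counted in 12 gene lists. Axon guidance and adhesion genes had members in 68 of 108 (62.96%), 248 members in all with dgn-1 thresholded. Homeobox genes had 39 of 81 (48.1%) with 64 members and none thresholded. Synapse, channel and receptor genes had 160 of 379 (42.2%) with 327 members and kqt-1 thresholded, and signalling genes had 32 of 73 (43.8%) with 96 members and mom-1 thresholded. Intron length differs between lists and was not taken into account, so these counts do not compare binding per base.

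The nuclear hormone receptor genes, relatives of the tagged protein, had members in 22.1% of those with eligible introns, with 97 members and none thresholded. At the 0.418% of all members, a count of 0 in a list of this size is near the background. Their best was in nhr-137, with 21.5 in the pooled list, 9.88 in replicate 1 and 10.9 in replicate 2. Metabolic and transport genes had members in 42 of 277 (15.2%), muscle structure genes in 21 of 49, chromatin genes in 31 of 100, cytoskeleton genes in 37 of 89, RNA-binding and germline genes in 31 of 121, bHLH, T-box, GATA and forkhead genes in 22 of 51, and ribosomal protein genes in 0 of 2. None of these 7 lists had a thresholded member, and each held fewer members than the receptor list. The lists are not complete: pbrm-1, egl-27 and nova-1, named above for chromatin or RNA-binding roles, are in none of them. Nor are they strict: the RNA-binding and germline list also holds lin-29 and lin-42, which its name does not cover. Of the 24 thresholded members, 21 lay in hosts outside all lists, where 0.459% of 4574 members were thresholded.

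By chromosome, density ran from 215 members per megabase of eligible intron on V to 287 on X. Chromosome X held 7 of the 24 thresholded members (0.626% of its members, interval 0.252% to 1.28%), III had 5, and I, II, IV and V had 3 each. The interval of X includes the share of all members. No pooled candidate of any kind lay within 20000 bp of nhr-12 itself, and whether regions there were removed before deposit is not stated. The gene unc-119 held 1 member, with a pooled signal of 19.3 (rank 1280) and outside the thresholded list.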

How the data were processed

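Regions came from lists that the authors deposited for 2 libraries of 1 group. Per the deposited description files, replicate candidates were called from 1 library against a control, pooled candidates from both libraries, and thresholded peaks from comparing lists by the irreproducible discovery rate. The aligner, caller, versions and threshold are not given in the sources used here. Each list has a signal computed by the authors' caller, of unknown scale, and deposited −log10 q values. Each replicate list held 30000 regions with a median width of 376 bp, and depth per sample is unknown.

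Gene models were Ensembl release 115 for WBcel235, the same assembly as ce11, and sequence and soft-masking came from its RefSeq copy. Python 3.11.15, numpy 2.4.6, pandas 2.3.3, scipy 1.17.1 and matplotlib 3.10.9 were used. Introns were gaps between merged exons of a gene, the shortest where hosts overlap. A member was thresholded if its coordinates equalled those of a peak, and regions overlapped from 1 bp, taking the overlapping candidate of largest signal. Intervals are exact Clopper-Pearson at 95%. No hypothesis test was made, since there is 1 group. The region code was checked on a toy annotation.

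Members, lists and motifs were chosen with earlier results of these data known. Named genes are hosts of thresholded members, of the 20 strongest, of the 5 next below, of members among the best regions of both replicates, and the 10 hosts with most members, ties kept. The microRNA neighbours and nhr-27, nhr-137, lin-29, lin-42 and unc-119 were named after their values were seen. Alternatives moved the start distance, the transcripts, the small RNA genes, the overlap, the list of peaks and the replicate used. The ce10 lists were not used.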

Additional observations from a re-analysis of the deposited data

How the results depend on the processing

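With starts over 500 bp away there were 7039 members and with 2000 bp 3937, and the share of members in first introns was 18.9% and 13.2%. Counting first introns over transcripts gave 30.3%. With summits over 500 bp from every non-coding gene except piRNAs and pseudogenes, 5213 members were left, 17 of them thresholded (0.326%). In first introns 4 of 742 were then thresholded (0.539%). The stronger part of the peaks, 124 by signal, by construction lowered the thresholded share to 0.122% of all members, 0.230% in first and 0.103% in later introns. An overlap of 50% of the shorter region lowered the share found in both replicates to 22.7%, and members overlapping no other gave 29.2%, an alternative added after seeing the data. Internal starts counted from 1000 bp upstream took in 12.7% of members, and 7 of the 24 thresholded ones (29.2%) in place of 4. With motif windows of 50 bp to each side, CTGCGTCT was in 1.31%, GAGAGA in 7.53% and GGGCGG in 2.58% of members. For these and the shares that follow, no cause beyond the changed construction was tested. With a single replicate's list, first introns held 14.1% to 14.5% of members, and the thresholded share, from the best regions of that replicate, was 0.361% to 0.462%. Of 64 alternative values, 51 stayed within the interval of the reported value or, for counts and densities, within 1.5 times it. The share found in both replicates has no value from 1 replicate. No paired analysis was possible because there is 1 group. The unknown depth limits every count of weak regions, and 24 thresholded members leave wide intervals.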
